A study of Mus musculus with 193 samples.

Results

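Chromatin remodellers are protein machines that use ATP to slide, evict or exchange nucleosomes, and bromodomain proteins bind acetylated histone tails. The members described here were chosen by name: every gene row whose symbol starts with Smarc, Arid, Brwd or Ino80, or is Chd or Brd followed by a digit, plus Phip, Bptf, Baz1a, Baz1b, Baz2a and Baz2b. They number 54 of 19557 gene rows. Most Smarc genes and part of the Arid genes encode SWI/SNF (BAF) complex subunits, in which Smarca4 (BRG1) or Smarca2 (BRM) is the ATPase and Arid1a, Arid1b or Arid2 sets the form of the complex. The Chd genes include the ATPases of NuRD and of factors that read methylated histone H3, Baz and Bptf proteins partner the ISWI ATPases Smarca1 and Smarca5, and the Ino80 genes belong to the INO80 remodeller. Brd2 and Brd3 are BET proteins, which couple acetylated chromatin to transcription. In mouse male germ cells the meiotic and later stages are known to need several of these genes, Brwd1 and Smarca4 among them.

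The values come from single cells of mouse testes, sorted for green fluorescence of an Id4-eGFP reporter that marks spermatogonial stem cells and their close progeny. All cells were sorted as positive for it. The groups were 69 cells from Rhox10 knockout mice at postnatal day 3 (KO P3), 53 wild-type cells at postnatal day 7 (WT P7) and 71 wild-type cells at postnatal day 3 (WT P3). Rhox10 is an X-linked homeobox gene, and the comparisons ask how loss of the gene and 4 more days of testis development go with expression in these cells. The labels give neither the strain, the deleted part of Rhox10, nor the animal of a cell. Each group therefore counts as 1 sample, and no test, p-value or standard error was made. Letters in the cell titles, whose meaning is not stated, divide the cells into sets: A, B and C with 21, 12 and 36 cells of KO P3, A and B with 12 and 41 cells of WT P7, and A and B with 16 and 55 cells of WT P3. The sets were used to show how far a difference repeats.

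A level is the mean over cells of log2(RPM + 1), where RPM is a gene's reads relative to 1000000 reads of the cell's total, and a group's level is the unweighted mean of its sets. A difference is on that scale, so that 1 is 2-fold, and changes of low-value genes come out too small on it. Standard deviations (SD) are between cells. A gene counted as measured in a comparison when its level averaged over both groups was at least 1. It is called here higher or lower when the difference was at least 1 in size and had the same sign in every pairing of 1 set with 1 set of the other group, which gives 6 pairs in the KO comparison and 4 in the comparison of ages. Both comparisons use the same WT P3 cells.

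The median total per cell was 4552353 reads in KO P3, 3299782 in WT P7 and 4425188 in WT P3, with a range of 251530 to 10663507 over all cells. All 193 cells had the germ cell genes Ddx4 or Dazl above 1 RPM. Rhox10 averaged 2.48 ± 1.57, 2.62 ± 1.47 and 0.83 ± 1.09 in KO P3 sets A, B and C (SD, n = 21, 12 and 36 cells), against 1.78 ± 1.51 and 1.49 ± 1.11 in the WT P3 sets (A first, n = 16 and 55). Its RNA was thus lower in set C but not in the other 2 sets, so these cells are called labelled KO below. KO P3 set A stood apart. The summed level of the 7 Sertoli cell markers was 135, 2.36 and 4.27 RPM in KO P3 sets A, B and C, and 13.8 and 33.2 RPM in the WT P3 sets. In KO P3 set A 19 genes of the G2/M phase had a mean level of 1.59, against 3.80 and 4.35 in the other KO sets, and Zbtb16, a transcription factor of spermatogonia, was at 1.06, against 4.52 and 4.34. All 7 Sertoli markers were detected in KO P3 set A, with Clu highest at a mean level of 2.80, and all 7 also in WT P3 set B, with Clu at 1.49. Amh, Gata4 and Rhox8 were at 0 in KO P3 set B and Gata4 also in KO P3 set C and WT P3 set A. Id4, the gene of the reporter, stood at 1.14, 2.41 and 2.25 in KO P3 sets A, B and C, against 3.75 and 3.46 in the WT P3 sets. By the rule above it was called lower, as was Lin28a, and none of the 8 germ cell markers was called higher. Results on KO P3 are given with and without set A, and the part these features play was not tested. The deposited values of all genes summed to between 129478 and 143122 RPM per KO P3 set and 153631 to 154801 per WT P7 set, against 108513 to 119560 per WT P3 set. Values rescaled by genes detected in at least 90% of cells, 3848 in number, are therefore given beside the main ones. This shifted the median difference of all genes by -0.13 for KO P3 and by -0.30 for WT P7.

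Promoters, the bases around the start of transcription, are shown for the WT P7 results below: Brwd3 and its relative Brwd1, and the BAF genes Arid1a and Smarca4. Each runs from 250 bases before to 50 bases after the start site, from RefSeq on GRCm38.p6, 5′ to 3′ in the sense of the gene, and 5 of 7 genes looked up had an entry. Capitals mark GGGCGG, a GC box bound by Sp family factors, on either strand (CCGCCC where it lies on the other strand).
Brwd3: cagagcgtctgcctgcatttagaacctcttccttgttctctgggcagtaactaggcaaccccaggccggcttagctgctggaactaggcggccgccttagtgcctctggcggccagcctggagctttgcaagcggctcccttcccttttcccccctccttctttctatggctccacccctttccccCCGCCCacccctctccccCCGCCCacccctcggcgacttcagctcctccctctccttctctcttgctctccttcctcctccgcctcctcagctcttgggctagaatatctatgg
Brwd1: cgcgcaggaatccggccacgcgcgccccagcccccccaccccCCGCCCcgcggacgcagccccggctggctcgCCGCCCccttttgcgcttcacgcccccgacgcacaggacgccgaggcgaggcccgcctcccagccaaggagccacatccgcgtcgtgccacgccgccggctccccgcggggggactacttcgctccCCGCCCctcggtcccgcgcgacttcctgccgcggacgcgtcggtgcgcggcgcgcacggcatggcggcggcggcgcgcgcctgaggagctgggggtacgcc
Arid1a: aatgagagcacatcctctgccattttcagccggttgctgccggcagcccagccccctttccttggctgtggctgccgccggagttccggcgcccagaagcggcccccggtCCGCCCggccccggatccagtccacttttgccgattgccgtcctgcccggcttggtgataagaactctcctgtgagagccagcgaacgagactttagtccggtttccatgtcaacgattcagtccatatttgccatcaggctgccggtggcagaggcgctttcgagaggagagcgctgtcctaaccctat
Smarca4: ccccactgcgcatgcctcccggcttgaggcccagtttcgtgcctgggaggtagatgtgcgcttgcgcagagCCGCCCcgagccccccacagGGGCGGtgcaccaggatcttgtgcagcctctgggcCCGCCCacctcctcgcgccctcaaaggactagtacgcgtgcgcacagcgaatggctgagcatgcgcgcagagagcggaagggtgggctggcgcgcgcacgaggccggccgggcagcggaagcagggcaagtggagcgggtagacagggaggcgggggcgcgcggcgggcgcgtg
The windows are chrX:108834297-108834596, chr16:96082379-96082678, chr4:133756720-133757019 (all on the minus strand) and chr9:21615919-21616218 (plus strand). GGGCGG was found 2 times in the Brwd3 window, 3 times in that of Brwd1, 1 time in that of Arid1a and 3 times in that of Smarca4, and it occurs in 35.7% of all 32851 promoters. RefSeq lists a further Arid1a promoter (chr4:133753936-133754235, minus strand), not shown, with 7 matches and 36 CpG dinucleotides. The other gene with an entry, Chd1l (chr3:97610141-97610440, minus strand), is not shown either. Its window has 0 matches to GGGCGG and 24 CpG dinucleotides. Arid2 and Arid3a had no entry. No match to CCAAT or TATAAA was found on either strand in the 4 windows shown, while 37.4% and 13.6% of all promoters hold them. The Brwd3 window holds 11 CpG dinucleotides and the Brwd1 window 52, against a median of 7 over all promoters. Arid1a has 22 and Smarca4 33.

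Remodeller and bromodomain RNA was found throughout these germ cells. The median cell had 40 of the 54 members above 1 RPM in KO P3 (34 to 46), 40 in WT P7 (31 to 48) and 41 in WT P3 (31 to 49). The members took 0.736% to 0.756% of gene reads in the KO P3 sets and 0.757% to 0.782% in the WT P7 sets, against 0.669% to 0.670% in the WT P3 sets. Per kilobase of annotated exon, the scale on which genes can be compared, Smarca4 stood at 6.07 RPM in KO P3, 10.8 in WT P7 and 5.13 in WT P3. Brd3, a BET gene, stood at 7.59, 6.44 and 4.80 RPM per kilobase in the same order of groups, and Chd4, the main NuRD ATPase, at 5.67, 6.69 and 4.39. Smarca2, the alternative BAF ATPase, was at 1.07, 0.618 and 0.570 RPM per kilobase. The members that were not measured in either comparison were Ino80b, Arid3c, Smarca1, Smarcd3, Arid5a and Smarcc2, with levels from 0.12 to 0.82 in KO P3, from 0 to 0.77 in WT P7 and from 0.12 to 0.92 in WT P3. The 0 is that of Arid3c. Chd9, Chd5 and Arid5b were measured for KO P3 but not for WT P7, where their levels were 0.59, 0.52 and 0.31, against 1.20, 0.90 and 1.09 in WT P3. Over the 7 sets the SD of the set means was 1.59 for Brwd3 and at most 0.78 for any other member.

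**Figure D1:**
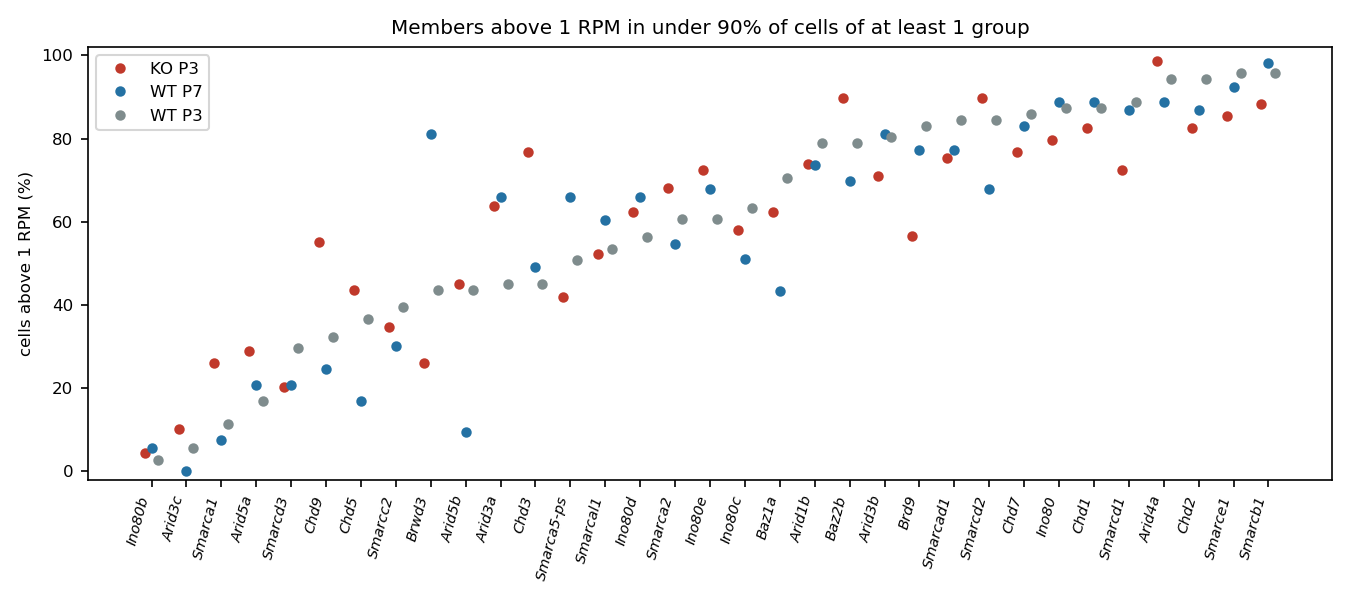
Share of cells above 1 RPM (y axis, %) for members under 90% in at least 1 group (x axis, ordered by WT P3), with 1 point per group. Brwd3 is at 81.1% in WT P7, against 43.7% in WT P3, and Arid5b is at 9.43% in WT P7, against 43.7%.

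At postnatal day 7, the member that stood furthest above day 3 was Brwd3, an X-linked gene whose protein carries WD40 repeats and a bromodomain. Arid1a and Arid2, the subunits that define different BAF complexes, and Smarca4, the ATPase that both can contain, were also called higher, as were Arid3a and Chd1l. Of 54 members, 45 were measured. Among them 6 were called higher, 13.3%, beside 7.02% of all 7669 genes measured the same way, and 0 were called lower, beside 2.88%. After rescaling 2 were called higher, Brwd3 and Arid1a, beside 1.63% of all genes, and 1 lower, Baz1a, beside 6.14%. By sign alone 22 members (48.9%) were higher in all 4 set pairs, beside 36.5% of all genes, and 2 (4.44%) were lower in all pairs, beside 15.6%. By sign after rescaling, 9 members were higher in all pairs and 10 lower, beside 18.8% and 33.2% of all genes, so the balance of members turns with the scale. The median difference of the members was 0.35, with 34 above and 11 below 0, beside 0.17 for all genes. After rescaling it was -0.08, beside -0.13 for all genes.

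**Figure D2:**
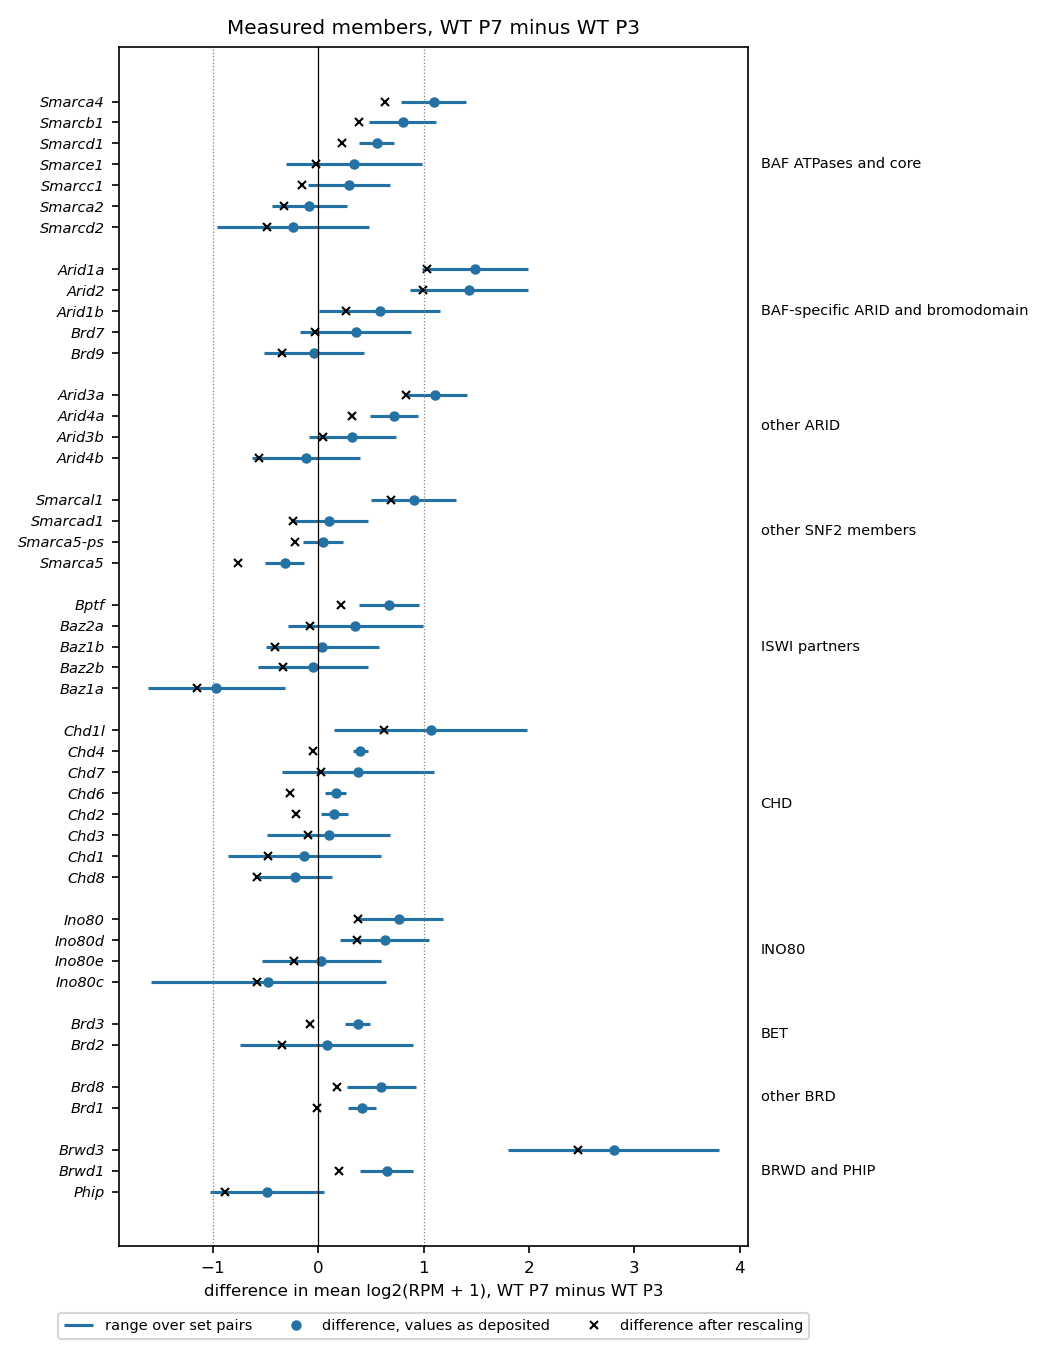
Difference in mean log2(RPM + 1), WT P7 minus WT P3 (x axis), for the measured members reported here (rows, grouped by family). Points are values as deposited, bars their range over the 4 set pairs, crosses the values after rescaling, and dotted lines mark a difference of 1 in size. Brwd3 lies furthest right at 2.81, and most crosses lie left of their points.

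Brwd3 (chrX:108737016-108834372, minus strand, GRCm38) averaged 4.73 ± 2.03 and 3.47 ± 2.24 in WT P7 sets A and B (SD, n = 12 and 41 cells), against 0.92 ± 1.34 and 1.67 ± 1.92 in the WT P3 sets (n = 16 and 55). In single cells it ranged up to 160 RPM with a median of 20.9 in WT P7, against a highest value of 66.6 and a median of 0.548 in WT P3, and both groups held cells at 0. Thus the set means did not overlap, while single cells did. The difference was 2.81, with 1.81 to 3.81 over set pairs, and 2.47 after rescaling. It was above 1 RPM in 43 of 53 WT P7 cells (81.1%, exact 95% interval 68.0 to 90.6%), against 31 of 71 WT P3 cells (43.7%, 31.9 to 56.0%). These intervals cover counting error only. With each cell thinned to 1000000 total reads, a read would be found in 80.9% of WT P7 cells, against 48.2% of the 66 WT P3 cells deep enough. The totals are matched by this, but not the reads on genes, whose share of the total differs between the groups.

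Among its relatives the difference was smaller. Brwd1, an autosomal gene of the same family, averaged 5.84 ± 1.05 and 5.71 ± 0.96 in WT P7 sets A and B, against 5.31 ± 0.97 and 4.94 ± 0.77 in the WT P3 sets. Its difference was 0.65 (0.40 to 0.90 over set pairs) and 0.20 after rescaling. Phip, the third gene of the family, was at 3.92 and 4.73 in the WT P7 sets, against 4.67 and 4.95 in the WT P3 sets. Its difference was -0.49 as deposited, with a sign that varied between pairs (-1.03 to 0.06). After rescaling it was -0.88 and below 0 in all pairs (-1.40 to -0.37). Within single cells, the log2 value of Brwd3 minus that of Brwd1 averaged -1.68 in WT P7, against -3.83 in WT P3. That is a shift of 2.16 (1.04 to 3.27 over set pairs). As a mean it equals the difference of Brwd3 less that of Brwd1, so it is no separate evidence. A scale common to both genes cancels in it only where both values are well above 1 RPM, which Brwd3 in many WT P3 cells was not. Brwd3 exceeded Brwd1 in 9 of 53 WT P7 cells, against 3 of 71 WT P3 cells.

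**Figure D3:**
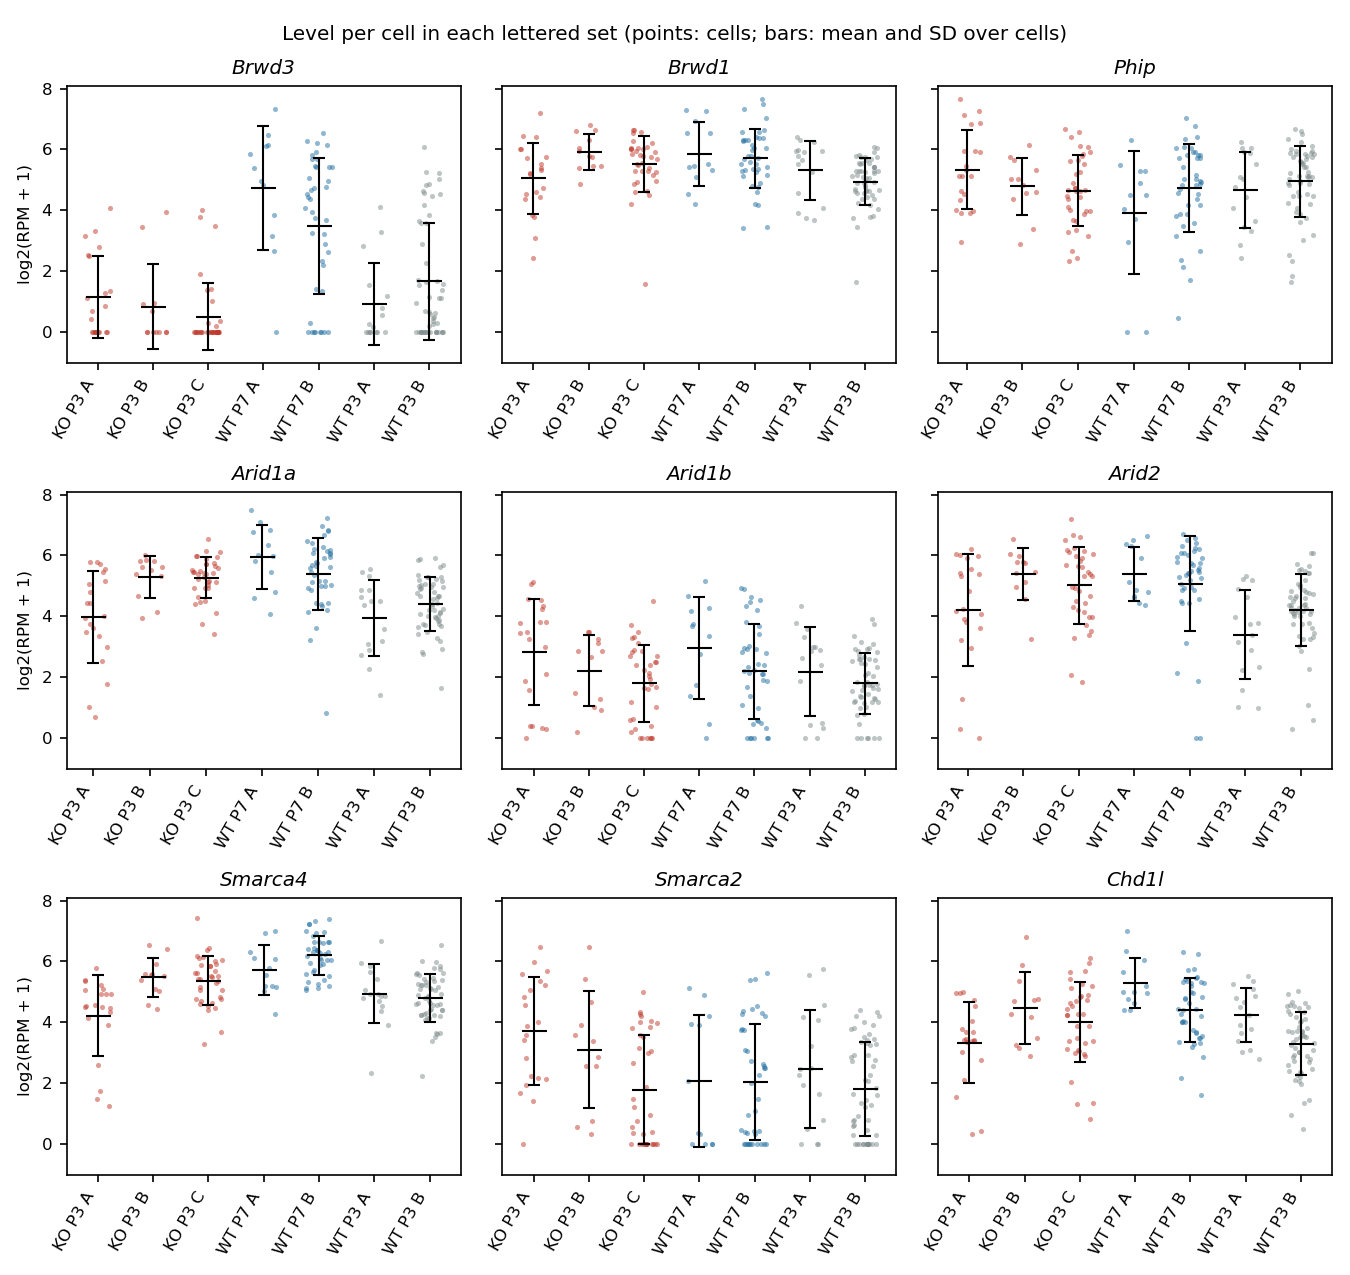
Level per cell, log2(RPM + 1) (y axis), of 9 members in each lettered set (x axis), with cells as points and the mean and SD over cells as bars. Cells of WT P7 lie above those of WT P3 in Brwd3 as set means, and all sets hold cells at 0 in that panel.

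The BAF genes had these values. Arid1a, a DNA-binding subunit of the canonical BAF complex (chr4:133679008-133756769, minus strand), averaged 5.94 ± 1.06 and 5.39 ± 1.18 in WT P7 sets A and B, against 3.95 ± 1.24 and 4.40 ± 0.88 in the WT P3 sets. The lowest, median and highest cells were at 0.744, 50.3 and 180.1 RPM in WT P7, against 1.63, 20.6 and 60.003 RPM in WT P3. Nearly every cell of both groups thus held the RNA, and the set means did not overlap. The difference was 1.49 (0.99 to 1.99 over set pairs) and 1.04 after rescaling. Arid2, the subunit that marks the PBAF form (chr15:96287518-96404992, plus strand), averaged 5.39 ± 0.89 and 5.07 ± 1.56 in the WT P7 sets, against 3.40 ± 1.47 and 4.20 ± 1.18 in the WT P3 sets. Its cells had a median of 42.3 RPM and a highest value of 103 RPM in WT P7, against 17.6 and 67.4 RPM in WT P3. The set means did not overlap here either, and the difference was 1.43 (0.87 to 1.99), or 0.99 after rescaling, which is just under the limit of 1.

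Smarca4, the BRG1 ATPase (chr9:21616169-21704230, plus strand), averaged 5.72 ± 0.81 and 6.20 ± 0.65 in the WT P7 sets, against 4.93 ± 0.97 and 4.80 ± 0.78 in the WT P3 sets. Its lowest, median and highest cells were at 18.4, 68.5 and 166.7 RPM in WT P7, against 3.67, 28.3 and 101.9 RPM in WT P3. It was above 1 RPM in all 53 WT P7 and all 71 WT P3 cells, and the set means did not overlap. The difference was 1.10 (0.79 to 1.40), and 0.64 after rescaling, below the limit. It was 0.85 without WT P7 set B. Smarcb1, a core subunit, came next in its group at 0.80 (0.48 to 1.12), and Smarcd2, a subunit with 2 close relatives in the member list, was lowest at -0.24 (-0.96 to 0.49). Of the 7 measured ATPase and core genes 3 were higher in all pairs and 0 lower, beside 36.5% and 15.6% of all genes. Of the 5 genes specific to one form of the complex (Arid1a, Arid1b, Arid2, Brd7 and Brd9) 3 were higher in all pairs, beside the same 36.5%, and Brd9, a bromodomain subunit of the non-canonical form, was lowest at -0.04 (-0.51 to 0.43).

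Of 3 pairs of BAF genes compared within cells, 2 differed at day 7 in the same direction in all set pairs. The mean of such a difference equals that between the levels of the 2 genes. The shifts therefore restate the differences of the single genes and are no separate evidence. They are on values as deposited, and a scale common to both genes does not cancel where a value is low. Smarca4 minus Smarca2 averaged 3.91 in WT P7, against 2.73 in WT P3, a shift of 1.18 (0.65 to 1.71 over set pairs). Smarca2 itself was at 2.05 in WT P7 and 2.13 in WT P3. Arid1a minus Arid1b averaged 3.10 in WT P7, against 2.19 in WT P3, a shift of 0.91 (0.38 to 1.43). After rescaling the differences of the single genes were 0.64 (Smarca4), -0.32 (Smarca2), 1.04 (Arid1a) and 0.26 (Arid1b). Arid2 minus Arid1a averaged -0.44 in WT P7 and -0.38 in WT P3, a shift of -0.06 whose sign varied between pairs (-0.35 to 0.23).

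**Figure D4:**
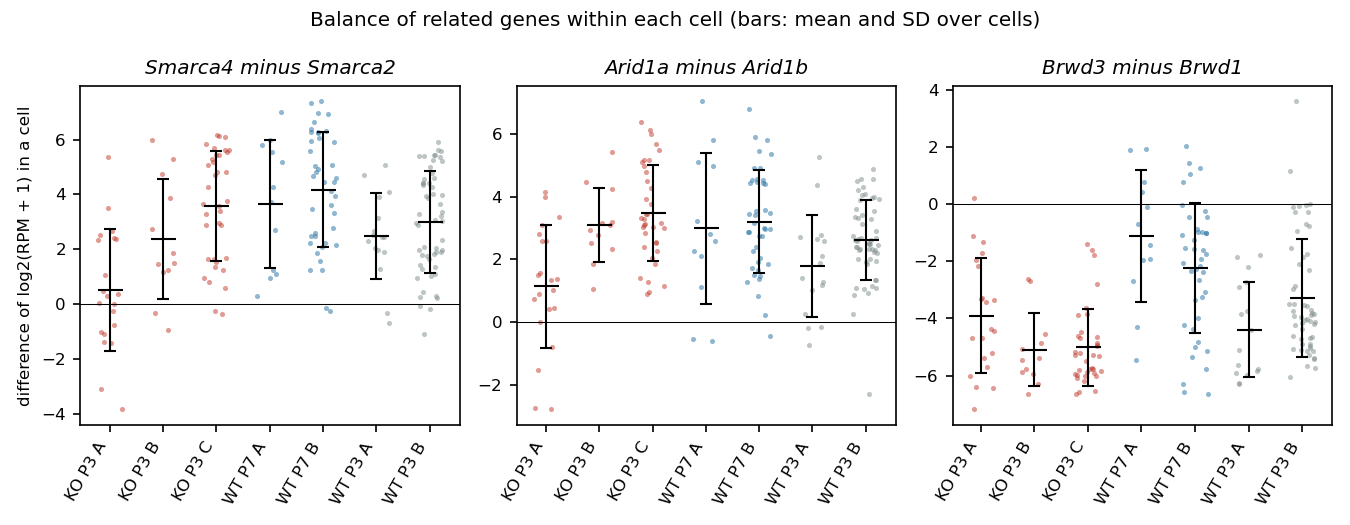
Difference of log2(RPM + 1) between 2 related genes in the same cell (y axis) for each lettered set (x axis), with cells as points and the mean and SD over cells as bars. Smarca4 minus Smarca2 has set means of 3.65 and 4.18 in WT P7, against 2.47 and 3.00 in WT P3, and 0.50 in KO P3 set A.

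The 2 other called members lie outside the BAF complex. Arid3a, a DNA-binding protein (chr10:79927043-79955018, plus strand), averaged 2.13 ± 2.05 and 1.97 ± 1.48 in the WT P7 sets, against 0.72 ± 0.84 and 1.16 ± 0.90 in the WT P3 sets. It was above 1 RPM in 35 of 53 WT P7 cells (66.0%, 51.7 to 78.5%), against 32 of 71 WT P3 cells (45.1%, 33.2 to 57.3%), and any read at all would be found in 70.8% and 58.0% of cells thinned to 1000000 total reads. Its WT P3 level of 0.94 lies under the floor of 1, so it counted as measured only through WT P7. The difference was 1.11 (0.81 to 1.41) and 0.83 after rescaling, and it was 0.89 without WT P3 set A. Chd1l, an ATPase that acts in DNA damage repair (chr3:97560742-97610203, minus strand), averaged 5.28 ± 0.82 and 4.40 ± 1.06 in the WT P7 sets, against 4.24 ± 0.90 and 3.29 ± 1.03 in the WT P3 sets. Its difference of 1.07 spread from 0.15 to 1.99 over set pairs. It was 0.63 after rescaling, 0.63 without WT P7 set A and 0.59 without WT P3 set B, each under the limit.

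The remaining families held members on both sides of the members' median of 0.35, except that of Brd8 and Brd1, which both lay above it. Among the Chd genes 4 of 8 measured were higher in all pairs, beside 36.5% of all genes, and Chd8, which binds beta-catenin, was lowest at -0.22 (-0.57 to 0.13). Ino80, the ATPase of its complex, was highest of 4 measured genes at 0.77 (0.36 to 1.18), and Ino80c, a small subunit, was lowest at -0.47 (-1.59 to 0.64). Of the BET genes, Brd2 was at 0.08 (-0.74 to 0.90) and Brd3 at 0.37 (0.26 to 0.49), and Brd8, a subunit of the TIP60 complex, and Brd1, a scaffold of histone acetyltransferases, were at 0.60 and 0.42. Among the ISWI partners Bptf, the reader subunit of NURF, was highest at 0.67 (0.39 to 0.96). Baz1a, the partner of Smarca5 in the ACF and CHRAC complexes, was lowest of all measured members. It averaged 0.43 ± 0.98 and 1.43 ± 1.48 in the WT P7 sets, against 2.05 ± 1.59 and 1.75 ± 1.17 in the WT P3 sets, a difference of -0.97 (-1.62 to -0.32). It passes the limit as lower after rescaling, at -1.15. Its WT P7 level of 0.93 (0.78 after rescaling) lies under the floor of 1, so it counted as measured only through WT P3. Smarca5, the ISWI ATPase, was lower by less, at -0.32 (-0.50 to -0.13), and at -0.76 after rescaling. The processed pseudogene Smarca5-ps can share reads with Smarca5, so the values of both are uncertain. Smarcal1, an ATPase that restarts stalled replication forks, was highest of the other SNF2 genes at 0.91 (0.51 to 1.31). Of the other ARID genes, Arid4b, a subunit of the SIN3 corepressor, was lowest at -0.12 (-0.63 to 0.40). The measured members Chd1, Chd6, Chd7, Smarcc1, Smarcd1, Smarce1, Baz1b, Baz2a and Brd7 ran from -0.13 (Chd1) to 0.56 (Smarcd1). After rescaling Brd3 stood at -0.08 and was lower in all pairs, as were Chd8 at -0.58 and Arid4b at -0.56. Brd8 at 0.18, Brd1 at -0.01, Bptf at 0.22 and Ino80 at 0.38 then varied in sign between pairs. So did Brd2 at -0.34 and Ino80c at -0.58. Smarcal1, at 0.69, stayed higher in all pairs.

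The 19 G2/M genes stood at mean levels of 2.64 and 4.91 in WT P7 sets A and B, against 3.28 and 3.87 in the WT P3 sets, and the 15 S phase genes at 3.94 and 4.97, against 3.72 and 4.52. The Sertoli markers summed to 0 and 1.23 RPM in WT P7 sets A and B, against 13.8 and 33.2 RPM in WT P3. All 7 were at 0 in WT P7 set A, and Amh and Amhr2 were at 0 in set B. Of 8 germ cell markers 4 were higher and 2 lower in all pairs. Id4, the gene of the reporter, was called lower, at 1.99 and 2.59 in WT P7 sets A and B, against 3.75 and 3.46 in WT P3. Zbtb16 was called higher, at 5.46 and 5.42, against 2.77 and 3.54. The part of these genes in the differences was not tested. In Brwd3, Arid1a, Arid2, Arid3a and Chd1l the value in WT P7 set A was above that in set B. In Smarca4 it was below.

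In cells labelled KO, only Arid2 and the SIN3 subunit Arid4a were called higher among 48 measured members, and no member was called lower. That is 4.17%, beside 1.07% of all 7928 genes measured, and 0, beside 0.58%. After rescaling neither call held, and 1 member, Brd9, was called lower, beside 1.02% of all genes. By sign alone 12 members (25%) were higher in all 6 set pairs, beside 17.1% of all genes, and 2 (4.17%), Brd9 and Smarca5, were lower, beside 5.26%. The 12 include Arid3a, at 1.63 in KO P3 and 0.94 in WT P3, which counted as measured only through KO P3. By sign after rescaling, 11 of the 47 then measured were higher in all pairs and 4 lower, beside 11.1% and 11.5% of all genes. The median difference was 0.22, with 38 above and 10 below 0, beside 0.13 for all genes. Arid3a and Chd5 count among the 38 only through KO P3, and Brwd3 and Smarca5-ps among the 10 only through WT P3. The median was 0.42 without KO P3 set A, beside 0.26 for all genes. Without that set the members called higher in KO P3 were again 2, Arid2 and Arid1a, beside 2.75% of all genes.

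Arid2 averaged 4.20 ± 1.84, 5.39 ± 0.86 and 5.02 ± 1.27 in KO P3 sets A, B and C (SD, n = 21, 12 and 36 cells), against 3.40 ± 1.47 and 4.20 ± 1.18 in the WT P3 sets (n = 16 and 55). Set A of KO P3 thus lay 0.00 above set B of WT P3 at the precision shown, and the others lay above both WT P3 sets. The difference of 1.07 (0.00 to 1.99 over set pairs) was 1.40 without KO P3 set A, 0.81 without KO P3 set B, 0.996 (just under the limit) without KO P3 set C, 0.67 without WT P3 set A and 0.89 after rescaling. Arid4a (chr12:71015990-71098592, plus strand) averaged 4.77 ± 1.30, 3.88 ± 1.02 and 3.76 ± 1.21 in KO P3 sets A, B and C, against 2.90 ± 1.39 and 3.30 ± 1.32 in the WT P3 sets. Its cells had a median of 15.4 RPM and a highest value of 123 RPM in KO P3, against 8.90 and 42.99 RPM in WT P3. The set means did not overlap, and set A was highest. The difference was 1.04 (0.46 to 1.87), 0.73 without KO P3 set A, 0.84 without WT P3 set A and 0.87 after rescaling.

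**Figure D5:**
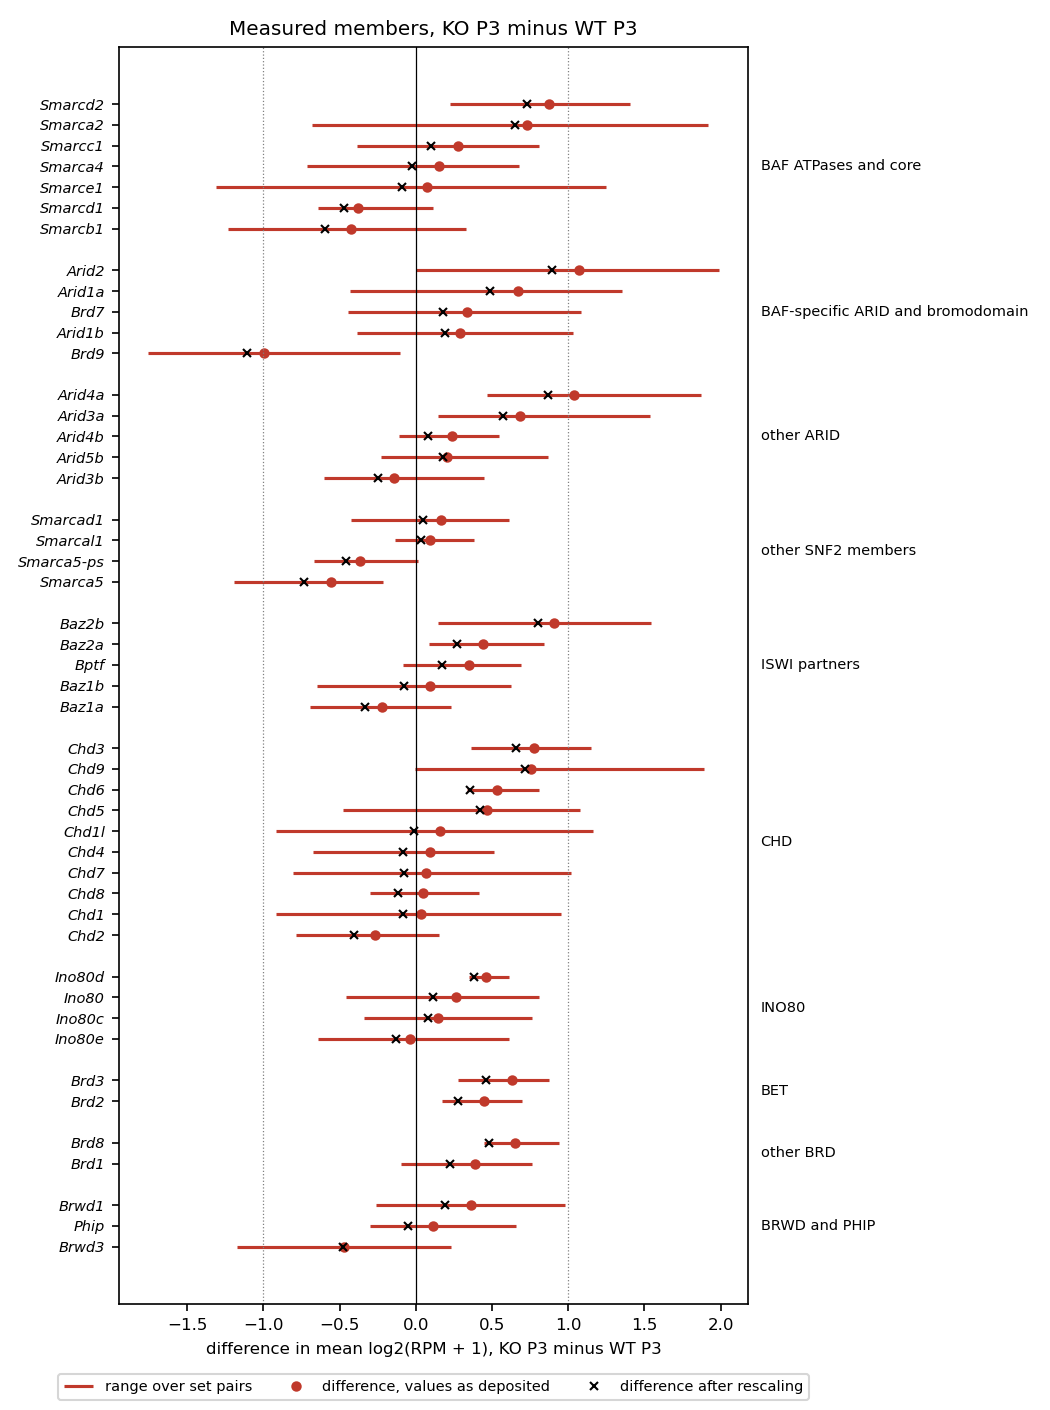
Difference in mean log2(RPM + 1), KO P3 minus WT P3 (x axis), for the measured members reported here (rows, grouped by family). Points are values as deposited, bars their range over the 6 set pairs, crosses the values after rescaling, and dotted lines mark a difference of 1 in size. Arid2 at 1.07 and Arid4a at 1.04 lie furthest right, and Brd9 at -0.997 lies furthest left.

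Brd9 was the lowest member. It averaged 0.87 ± 1.10, 1.25 ± 1.31 and 2.03 ± 1.63 in KO P3 sets A, B and C, against 2.63 ± 1.66 and 2.14 ± 1.21 in the WT P3 sets. The difference was -0.997, just short of the limit (-1.76 to -0.11 over set pairs). It was -0.74 without KO P3 set A and passed the limit after rescaling, at -1.11. Brd9 was above 1 RPM in 39 of 69 KO P3 cells (56.5%, exact 95% interval 44.04 to 68.4%), against 59 of 71 WT P3 cells (83.1%, 72.3 to 91.0%). Smarca5 was next at -0.55 (-1.19 to -0.21), and -0.25 without KO P3 set A. Its set A mean of 3.52 was the lowest of the KO sets, against 4.46 and 4.43 in sets B and C and 4.68 and 4.71 in the WT P3 sets.

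Other families in cells labelled KO had these extremes. Of the BAF ATPases and core genes, Smarcd2 was highest at 0.87 (0.23 to 1.41) and Smarcb1 lowest at -0.42 (-1.23 to 0.33). Without KO P3 set A these were 0.98 and -0.08. Smarca4 was at 0.15 (-0.71 to 0.67) and 0.55 without set A, with 4.22 in KO P3 set A and 5.47 and 5.36 in sets B and C. Smarca4 minus Smarca2 averaged 0.50, 2.38 and 3.58 in those sets, against 2.47 and 3.00 in WT P3. KO P3 set A thus had the smallest excess of Smarca4. Arid1a was at 0.67 (-0.43 to 1.36) and 1.11 without KO P3 set A, past the limit and with 3.97 in set A, 5.30 and 5.27 in sets B and C. Baz2b, a bromodomain gene of the ISWI partner family, was highest of its family at 0.90 (0.15 to 1.54), and Baz1a lowest at -0.22 (-0.70 to 0.23). Chd3, a NuRD ATPase, was highest of the Chd genes at 0.77 (0.36 to 1.15) and above 1 RPM in 76.8% of KO P3 cells, against 45.1% of WT P3 cells. With cells thinned to 1000000 total reads, any read would be found in 80.1% and 60.7%. Chd2 was lowest of that family at -0.26 (-0.78 to 0.15). Without KO P3 set A, Baz2b was at 0.61, Baz1a at -0.37, Chd3 at 0.68 and Chd2 at -0.42.

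Of the BET genes, Brd3 was at 0.63 (0.27 to 0.87) and Brd2 at 0.45 (0.17 to 0.70). Brd8 was at 0.65 (0.45 to 0.94) and Brd1 at 0.39 (-0.09 to 0.76). Ino80d was at 0.46 (0.35 to 0.61) and Ino80e at -0.04 (-0.64 to 0.61). Arid3b, a relative of Arid3a, was lowest of the other ARID genes at -0.14 (-0.60 to 0.45). Chd1, Chd6, Chd7, Smarcc1, Smarcd1, Smarce1, Baz1b, Baz2a and Brd7 ran from -0.38 (Smarcd1) to 0.53 (Chd6). Smarcad1, an ATPase that acts after replication, was at 0.16 (-0.42 to 0.61). Brwd3 was at 1.15, 0.83 and 0.49 in KO P3 sets A, B and C, beside 0.92 and 1.67 in the WT P3 sets, a difference of -0.47 (-1.18 to 0.23) whose sign varied between pairs. Its KO P3 level of 0.82 lies under the floor of 1, so it counted as measured only through WT P3. After rescaling it no longer counted as measured. It was above 1 RPM in 18 of 69 KO P3 cells (26.1%, 16.3 to 38.1%), against 43.7% of WT P3 cells, and any read would be found in 30.3% and 48.2% after thinning. Brwd1 was at 0.37 (-0.26 to 0.98) and highest of its family. Without KO P3 set A, the differences were 0.79 for Brd3, 0.44 for Brd2, 0.69 for Brd8, 0.57 for Brd1, 0.51 for Ino80d, -0.63 for Brwd3 and 0.59 for Brwd1. Ino80e, at 0.07 without that set, changed sign, and Arid3b and Smarcad1 stood at -0.00 and 0.09.

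Genes of the same complexes outside the member names were counted in lists of partners. The counts by sign stand beside 36.5% higher and 15.6% lower of all genes at day 7, and beside 17.1% and 5.26% in cells labelled KO. The calls stand beside 7.02% of all genes called higher and 2.88% lower at day 7, and beside 1.07% and 0.58% in cells labelled KO. Partner values are as deposited. They were not rescaled, so whether these calls hold on that scale is not known. At day 7, of the measured BAF partners 3 of 6 were higher in all pairs and 0 lower, and Dpf2, a histone reader of BAF, was called higher at 1.01 (0.86 to 1.16). Of the INO80, SRCAP and TIP60 partners 11 of 19 were higher and 1 lower in all pairs. The 2 called were Ruvbl2, an AAA+ ATPase shared by these complexes, at 1.28 (0.78 to 1.78), and Vps72, the H2A.Z chaperone, at 1.06 (0.60 to 1.52). The NuRD partners had 5 of 11 higher and 2 lower, and the ISWI partners outside the member names 2 of 5 higher and 1 lower. Of the other bromodomain genes 6 of 16 were higher and 3 lower in all pairs. The acetyltransferase Crebbp was called higher at 1.08 (0.81 to 1.35) and the histone methyltransferase Ash1l at 1.13 (0.65 to 1.62), while Zmynd11, a reader of H3.3 trimethylated at lysine 36, was called lower at -1.31 (-1.74 to -0.88). In cells labelled KO, 5 of 8 BAF partners, 2 of 11 NuRD partners, 0 of 5 ISWI partners, 3 of 18 INO80, SRCAP and TIP60 partners and 4 of 16 other bromodomain genes were higher in all pairs. Lower in all pairs were 1 NuRD partner and 2 INO80, SRCAP and TIP60 partners. Of these, Actr6, a subunit of SRCAP, was the only partner called, at -1.14 (-2.01 to -0.34).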

How the data were processed

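The data were deposited as 1 table of genes by 193 single cells. Per the labels' protocols, cDNA was made on a Fluidigm C1 with SMARTer chemistry and ERCC spike-ins and libraries with Nextera XT. STAR 2.3.0, HTSeq 0.6.1 and mm10 stand in the submitters' processing notes without roles. For the strand setting nothing was stated, so reads of a gene and an antisense or overlapping gene cannot be told apart. The values as deposited are named TPM but behaved as RPM: 100.0% of them on average (99.99% in the lowest cell, tolerance 0.001 RPM) were whole multiples of 1 step per cell, so they carry no gene length. The rows summed to 8.13% to 23.0% of the total that this step implies. A count test on these recovered reads was not run, because each group is 1 sample. The 84 ERCC rows and the ribosomal RNA precursor were kept out of the gene comparisons.

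The members and lists were chosen with earlier results of these data known. Of the members, 1 is counted but not reported here. The genes named were the called members, the 2 highest and 2 lowest per comparison, the highest and lowest of each family, and called partners. The pairs of related genes compared within cells, the levels per kilobase and further names (Phip in the family of Brwd3, Smarca2, Arid1b, Chd4, and extra values of named genes) were chosen after values were seen. Gene positions and exon lengths came from GENCODE vM21 and promoters from RefSeq. Python 3.11.15, pandas 2.3.3, NumPy 2.4.6 and SciPy 1.17.1 were used, and the calculation was tested on simulated data. Alternatives varied the pseudocount of 1, the floor, the scaling, the averaging, the sets and the depth.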

Additional observations from a re-analysis of the deposited data

How the results depend on the processing

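No paired analysis was possible because no test was made and the numbers in the titles only count cells within a set. Rescaled to stably detected genes, 0 members were called higher and 1 lower in KO P3 (beside 0.451% and 1.02% of all genes). In WT P7, 2 were called higher (Arid1a, Brwd3) and 1 lower (Baz1a), beside 1.63% and 6.14% of all genes. The medians were 0.0975 (KO P3) and -0.0760 (WT P7). Rescaled to the sum over genes, the counts were 0 and 1, and 3 and 1, and the medians 0.0241 and -0.0588. Both rescalings thus reversed the sign of the WT P7 median. Under them the WT P7 median of all genes shifted by -0.301 and -0.297. The median of the members less that of all genes went from 0.188 to 0.0586 and 0.0715. With a pseudocount of 0.1, 4 were called higher and 1 lower in KO P3 (beside 4.84% and 2.70% of all genes), and 8 higher and 1 lower in WT P7 (beside 11.7% and 11.2%). With 10, 0 were called higher in KO P3 and 2 in WT P7, whose median was 0.236. With no floor that median was 0.159. With values averaged before the log the medians were 0.382 (KO P3) and 0.416 (WT P7). With all cells weighted equally 0 were called higher in KO P3. The counts for the sum over genes, the pseudocount of 10 and equal weighting stand without the share of all genes. They therefore do not show how the members compare with all genes. The cause of these changes was not tested.

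With each set left out in turn, 1 to 3 were called higher and 0 to 1 lower in KO P3, and 5 to 7 higher and 0 to 2 lower in WT P7, while the medians ran from 0.196 to 0.421 (KO P3) and from 0.295 to 0.356 (WT P7). These counts too stand without the share of all genes and do not show how members compare with it. Baz1a and Ino80c were the 2 called lower without WT P7 set B. Their levels of 0.43 and 0.28 in WT P7 set A lie under the floor, so they counted as measured only through WT P3. Of the differences and shares of cells of 32 single members under the alternatives, 836 moved by less than the SD between set pairs or within their interval and 60 by more. A change of floor cannot move a difference, and leaving out 1 set always moves it by less than that SD. The 836 include these cases, so the tally is no measure of robustness. Arid1a and Brwd3 were called higher in WT P7 under every alternative tried. Counted as any read after thinning to 1000000 total reads, with 5 shallower cells left out, the WT P3 shares of Arid3a and Chd3 were 58.0% and 60.7%, outside the intervals of the shares above 1 RPM. The criterion differs, so the move is no measure of depth.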
